A study of Mus musculus with 6 samples.

Results

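The genes described here are targets of the tumour suppressor p53 and parts of the apoptosis machinery in mouse embryonic stem (ES) cells. They are 40 genes chosen by symbol: 22 that p53 is known to induce, 16 apoptosis genes that are not primarily driven by p53, and the pair Trp53 and Mdm4, which encode p53 itself and one of its inhibitors. Of the 40, 36 were among the 10128 genes of the authors' deposited table. Fas, a death receptor gene of the induced group, and Bcl2, Casp6 and Casp8 of the other group were not in the table. Expression was measured by RNA sequencing in 3 libraries of Tex19.1-/- cells, which lack the gene Tex19.1, and 3 libraries of Tex19.1+/- cells, which keep 1 working copy. All cells derive from the E14Tg2a line on a 129/Ola background, were grown in serum with leukaemia inhibitory factor and were at passages 12 to 18. The labels do not say whether the libraries of a genotype came from separate cultures or clones, so the p-values measure the spread between these libraries, which may be technical. Both genotypes carry at least 1 mutated allele, and no wild-type cells were compared.

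The transcription factor p53 is held low by Mdm2 and Mdm4 and is stabilised by DNA damage and other stresses. It then activates genes that stop the cell cycle, repair DNA or start apoptosis, and it activates Mdm2, which closes a feedback loop. Apoptosis through mitochondria is decided within the BCL2 family: guardians such as Mcl1 restrain the pore formers Bax and Bak1, and BH3-only proteins such as Noxa, Puma and Bim set the pore formers free. Cytochrome c then leaves the mitochondria and assembles with Apaf1 and Casp9 into the apoptosome, which activates executioner caspases. ES cells carry abundant p53 and are known to be quick to enter apoptosis.

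The authors' deposited table gives each gene a log2 fold change, a mean level over the 6 libraries in CPM (reads of the gene relative to all reads of a library), together with raw and adjusted p-values, and no value per library. No spread or depth can therefore be printed beside a fold change. A gene is said to have risen or fallen where its adjusted p was under 0.05. Tex19.1 had the lowest log2 fold change of the authors' deposited table, -6.92, and the direction of all fold changes was read from it, so positive values mean higher in Tex19.1-/- cells. At that threshold 51.7% of all 10128 genes were called, 26.5% lower and 25.2% higher in Tex19.1-/- cells, and the median log2 fold change of all genes was 0.00. All 10 ES cell markers examined were in the table, with 4 higher, 4 lower and 2 not called. Of 14 primitive endoderm markers 11 were in the table and all 11 fell, with a median log2 fold change of -2.08 and a summed mean level of 571.4 CPM; Sox17, Foxa2 and Amn were not in it. Of 11 fibroblast markers 3 were in the table, with 2 lower and 1 higher, and collagen I was not among them. Whether the loss of endoderm transcripts has a part in the results below was not tested.

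Matches to the sequence that p53 binds were found in promoters of the induced group. A p53 response element is a pair of decamers that follow one consensus. The p53 decamer consensus was searched without mismatches from 250 bases before to 50 after each start in the RefSeq promoter set (GRCm38.p6). The consensus equals its own reverse complement, so 1 pass covers both strands. Of the 14 induced genes with a promoter entry, 9 held a match, or 64.3%. Of the 16 other apoptosis genes, all with an entry, 0 held one. Among 7640 genes of the deposited table with an entry, 605 did, or 7.92%. The member counts include the 4 genes that are not in that table, and a gene with several starts was counted once. The induced group is known in part from such sites, so its share is a description, and a match is not a shown binding site. Ddb2, Perp, Pmaip1, Rrm2b, Tnfrsf10b, Trp53inp1, Xpc and Zmat3 had no entry. Pmaip1, Tnfrsf10b and Perp had the lowest log2 fold changes of all members, and Ddb2, Trp53inp1 and Zmat3 fell as well. The sequences below thus leave out the largest falls. The matches are given on the strand of each gene, with the 10-base decamer in capitals and 10 bases on either side, to set the sequences of genes that fell beside those of genes that did not.
Cdkn1a, chr17:29090896-29090925, plus strand: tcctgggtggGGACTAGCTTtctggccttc
Cdkn1a, chr17:29090918-29090947, plus strand: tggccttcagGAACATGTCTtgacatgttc
Mdm2, chr10:117710925-117710954, minus strand: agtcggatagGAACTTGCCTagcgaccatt
Ccng1, chr11:40755452-40755481, minus strand: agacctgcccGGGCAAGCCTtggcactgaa
Sesn1, chr10:41887256-41887285, plus strand: cttggccttcAAGCTTGTTTttgctggcct
Polk, chr13:96519399-96519428, minus strand: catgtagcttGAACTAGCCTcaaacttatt
Ei24, chr9:36797325-36797354, minus strand: cgtgcggcccGGGCATGCCCagtgtgggcg
Aen, chr7:78895927-78895956, plus strand: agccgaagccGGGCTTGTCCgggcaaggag
Bax, chr7:45467080-45467109, minus strand: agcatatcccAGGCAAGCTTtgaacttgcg
Gadd45a, chr6:67037428-67037457, minus strand: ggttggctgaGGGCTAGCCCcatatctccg
Trp53, chr11:69580274-69580303, plus strand: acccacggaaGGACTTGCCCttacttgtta
Of these genes Cdkn1a, Mdm2, Ccng1, Sesn1, Polk and Ei24 fell, Aen, Bax and Gadd45a did not pass the threshold, and Trp53 rose. Of the induced genes with an entry and no match, Plk2 and Phlda3 fell and Bbc3 and Btg2 did not pass. Fas, also without a match, was not in the deposited table. Whether a match goes with a fall was not tested. Cdkn1a was the member with 2 matches. They lie 73 and 51 bases before one of its annotated starts.

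The p53-induced genes were mostly lower in Tex19.1-/- cells, and the other apoptosis genes moved in both directions. Of the 21 measured induced genes 14 fell and 0 rose at an adjusted p under 0.05, against 26.5% lower and 25.2% higher among all genes of the authors' deposited table. At an unadjusted p under 0.05 the authors' edgeR comparison had 1 induced gene higher, Bax (p = 0.0428). The median log2 fold change of the induced genes was -0.25. Of the 13 other apoptosis genes 3 fell and 5 rose, with a median of -0.01. The induced genes ranged from -1.28 to 0.12 on the log2 scale, and the other apoptosis genes from -0.35 to 0.36. Counting only called changes of at least 0.2 on the log2 scale, 11 induced genes fell and 0 rose, and 2 of the other apoptosis genes fell and 3 rose; by that rule 29.2% of all genes were called, 17.2% lower and 12.0% higher. Because the members were chosen with results of these data known, the counts and medians describe the groups and the difference between the groups was not tested.

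**Figure D1:**
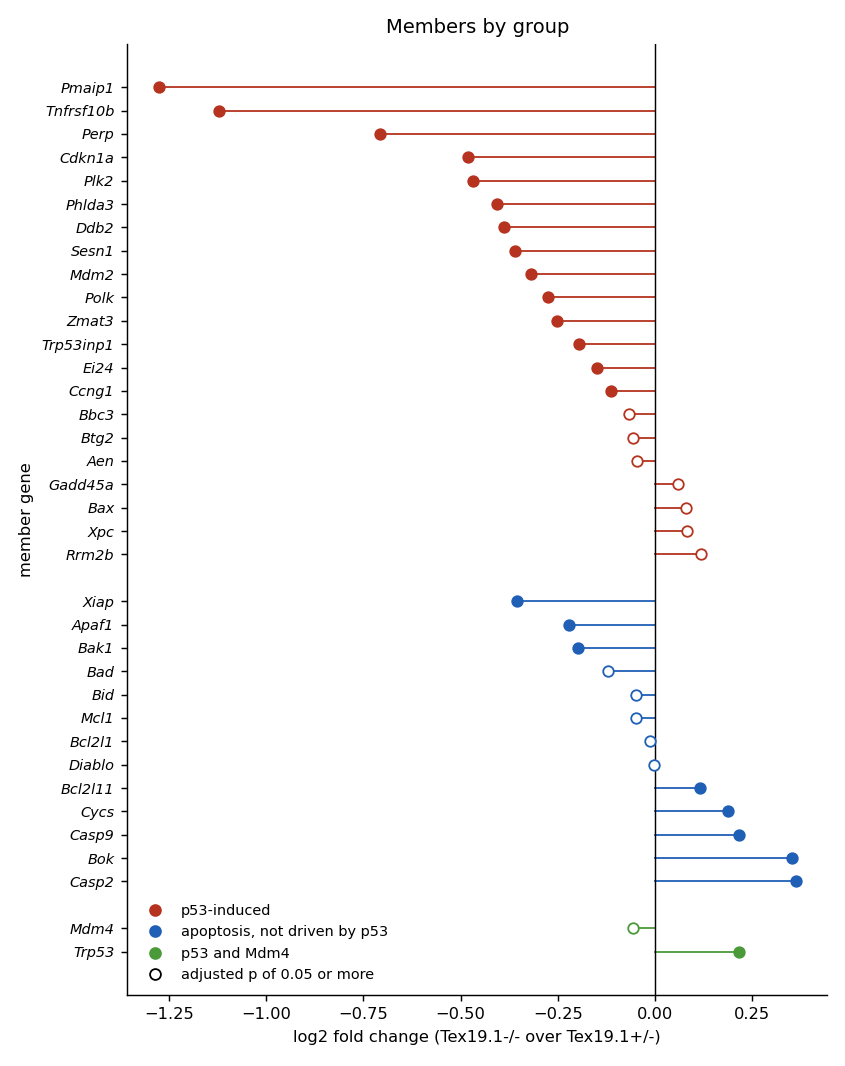
Log2 fold change of each of the 36 measured members (horizontal axis, Tex19.1-/- over Tex19.1+/-, from the authors' deposited table), sorted within 3 groups. Filled points have an adjusted p under 0.05 and open points do not. All 14 filled points of the induced group lie left of 0, and the 8 filled points of the other apoptosis genes lie on both sides.

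Trp53 and its inhibitors did not move together. Trp53, on chromosome 11 from 69580359 to 69591873 (GRCm38, plus strand, ENSMUSG00000059552.13), stood at 0.22 on the log2 scale of the authors' deposited table (adjusted p = 2.6e-07), so its transcript stood at 116.1% of the Tex19.1+/- level. Its mean was 407.2 CPM. Mdm2, the ubiquitin ligase that degrades p53 and is itself induced by it, was at -0.32 in the authors' deposited table (adjusted p = 9.72e-19), or 80.1% of the heterozygous level. Mdm4, a relative that binds p53 and blocks its activation domain, was at -0.06 in the authors' deposited table (adjusted p = 0.203) and did not pass. The annotation names 1 pseudogene of Trp53 and 1 of Mdm4, and reads may have been split among such copies. Protein was not measured.

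The death effectors of the induced group held the largest falls of any member. This role group and those below were formed after the values were seen. Pmaip1 encodes Noxa, a BH3-only protein that neutralises Mcl1. It lies on chromosome 18 from 66458533 to 66465565, and its log2 fold change was -1.28 in the authors' deposited table (adjusted p = 6.88e-179), which leaves 41.3% of the heterozygous level. Only 0.602% of the genes in the authors' deposited table had a fold change this low or lower. Tnfrsf10b, the receptor of the death ligand TRAIL, on chromosome 14 from 69767472 to 69784411, was at -1.12 in the authors' deposited table (adjusted p = 9.09e-147), or 45.9% of the heterozygous level. These 2 were the members that fell at least 2-fold, which 1.10% of all genes did. Perp, a desmosome and plasma membrane protein that takes part in p53-dependent apoptosis, was at -0.71 in the authors' deposited table (adjusted p = 1.59e-44).

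The other death effectors of the group did not pass. Bbc3, which encodes the BH3-only protein Puma, was at -0.07 in the authors' deposited table (adjusted p = 0.36). Bax, a pore former, was at 0.08 (adjusted p = 0.0773), and the nuclease gene Aen was at -0.05 (adjusted p = 0.297), both from the authors' deposited table. Of the 6 measured death effectors 3 therefore fell, where 26.5% of all genes did. Noxa and Puma are both BH3-only proteins, and their transcripts stood at 41.3% and 95.5% of the heterozygous level at mean levels of 11.4 and 11.6 CPM per kilobase of exon. Bax shares 192 exonic bases with a gene model on the same strand, Gm45808, whose reads could have been left out of its count.

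**Figure D2:**
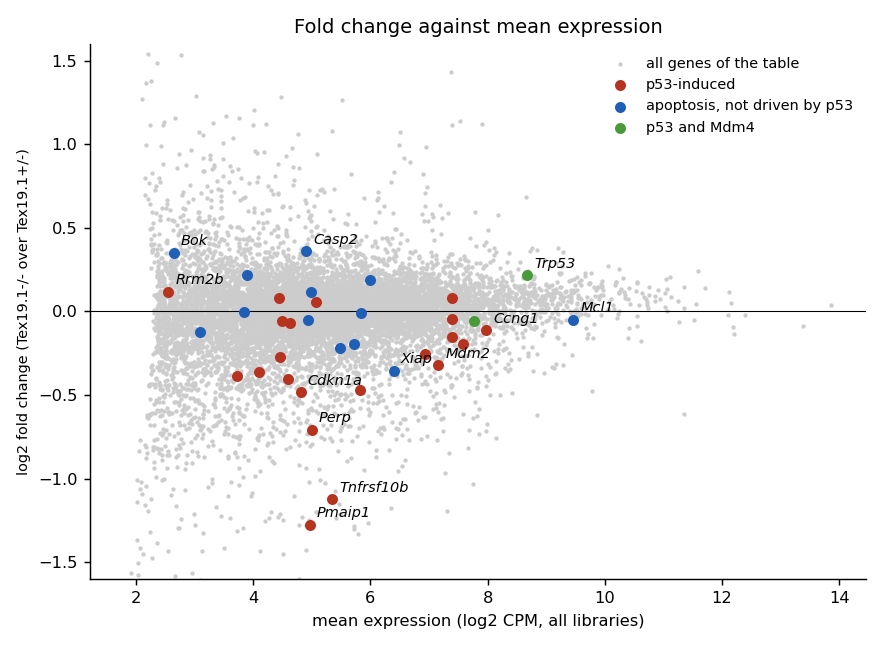
Log2 fold change (vertical axis, Tex19.1-/- over Tex19.1+/-) against mean expression over all libraries (horizontal axis, log2 CPM) for all genes (grey) and the members (coloured), from the authors' deposited table. The vertical axis ends at 1.6 on either side, which leaves out 39 genes that are not members. Pmaip1, Tnfrsf10b and Perp are the lowest members at -1.28, -1.12 and -0.71, and Trp53 lies above 0 at 0.22.

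Tnfrsf10b lies among neighbours that were lower as well. Of its 20 measured flanking genes, 10 on each side, 20 fell and 0 rose by the authors' deposited table, with a median log2 fold change of -0.69 and a range of -1.61 to -0.26. Tnfrsf10b stood 0.43 below that median on the log2 scale (a difference of -0.43), and 3 of the 20 neighbours were as low or lower. The other 35 measured members had flanking medians of -0.12 to 0.13, so none lay in such a stretch. Without Tnfrsf10b, 13 of 20 induced genes fell and their median was -0.22.

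**Figure D3:**
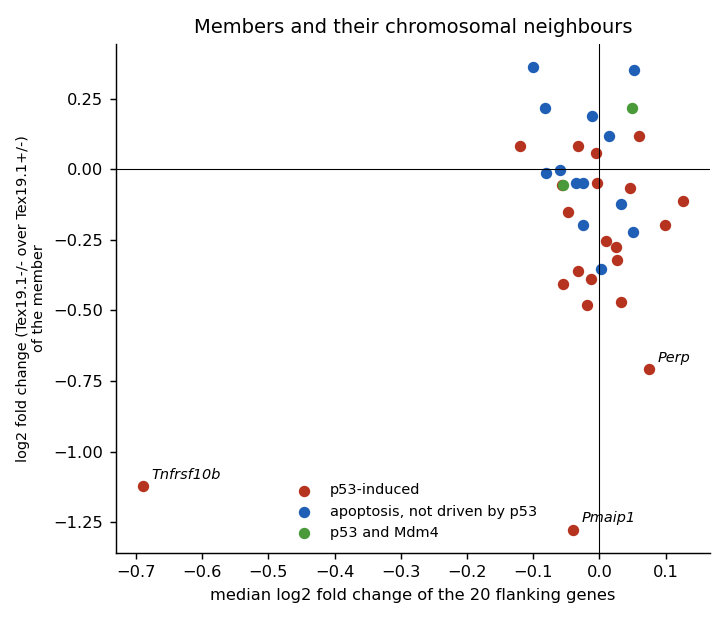
Log2 fold change of each measured member (vertical axis) against the median log2 fold change of its 20 flanking genes on the chromosome (horizontal axis), from the authors' deposited table. Tnfrsf10b stands alone at the left at -0.69, and Pmaip1 and Perp are low while their neighbours lie near 0.

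Among the cell cycle genes of the induced group 3 of 5 fell, where 26.5% of all genes did. Cdkn1a encodes p21, the inhibitor of cyclin-dependent kinases through which p53 arrests the cycle. It lies on chromosome 17 from 29090976 to 29100727 and stood at -0.48 in the authors' deposited table (adjusted p = 1.23e-24), or 71.6% of the heterozygous level. Plk2, a kinase of the Polo family that p53 induces, was at -0.47 in the authors' deposited table (adjusted p = 1.6e-30). The change in Ccng1, or cyclin G1, which acts back on Mdm2, was small, -0.11 (adjusted p = 0.0061) by the authors' deposited table, with a mean of 252.6 CPM. Btg2, an antiproliferative gene, at -0.06 (adjusted p = 0.347), and Gadd45a, a stress gene that many factors besides p53 induce, at 0.06 (adjusted p = 0.33) did not pass by the authors' deposited table.

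All 5 induced genes of stress defence, signalling and RNA control fell, where 26.5% of all genes did. The 5 were grouped after their values were seen. Phlda3, which dampens the survival kinase Akt, was at -0.41 in the authors' deposited table (adjusted p = 2.08e-14). Sesn1, a sestrin that restrains the growth kinase complex mTORC1, was at -0.36 in the authors' deposited table (adjusted p = 2.05e-09). The splicing regulator gene Zmat3 was at -0.25 (adjusted p = 6.01e-12) and the p53 cofactor gene Trp53inp1 at -0.20 (adjusted p = 3.93e-06) by the authors' deposited table. Ei24, a gene of the endoplasmic reticulum with a role in autophagy, was at -0.15 in the authors' deposited table (adjusted p = 0.000161). These transcripts thus stood between 75.5% and 90.1% of the heterozygous level.

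Repair and nucleotide genes of the induced group were divided, with 2 of 4 lower, where 26.5% of all genes were. Ddb2, which recognises ultraviolet damage in chromatin, was at -0.39 in the authors' deposited table (adjusted p = 1.82e-08). Polk, a polymerase that copies past DNA lesions, was at -0.27 in the authors' deposited table (adjusted p = 2.18e-07). Xpc, another damage sensor of nucleotide excision repair, at 0.08 (adjusted p = 0.159), and Rrm2b, the p53-inducible subunit of ribonucleotide reductase, at 0.12 (adjusted p = 0.227) did not pass by the authors' deposited table. Rrm2b had the lowest mean level of all measured members per kilobase of exon, 0.641 CPM, and a total of 5.85 CPM. Ddb2 and Acp2 share 652 exonic bases on opposite strands, and Acp2 was at 0.01 in the authors' deposited table. The strand setting of the authors' counting is not given, so reads from that stretch cannot be assigned.

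**Figure D4:**
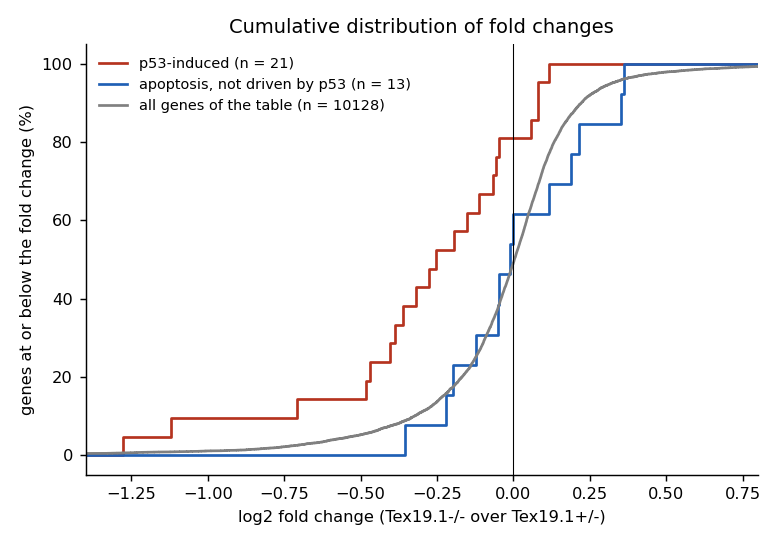
Share of genes at or below each log2 fold change (vertical axis in percent, horizontal axis Tex19.1-/- over Tex19.1+/-) for 21 p53-induced genes, 13 other apoptosis genes and all 10128 genes of the authors' deposited table. The induced genes run left of all genes, with a median of -0.25, and the other apoptosis genes cross the curve of all genes.

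Among the BCL2 family genes outside the induced group the guardians did not pass. Mcl1, which Noxa binds, was at -0.05 (adjusted p = 0.282), and Bcl2l1, which encodes BCL-XL, was at -0.01 (adjusted p = 0.833) by the authors' deposited table. Per kilobase of exon, Mcl1 had the highest mean level of any member, 206 CPM per kilobase, followed by Bax at 107 and Trp53 at 101. Bcl2l1 was at 12.5 and Pmaip1 at 11.4 CPM per kilobase by the same measure.

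Pore formers and BH3-only genes differed one by one. Bak1, a pore former, was at -0.20 in the authors' deposited table (adjusted p = 5.64e-06). Bok, another pore former, which guardians do not restrain, was at 0.35 (adjusted p = 3.59e-05) with a mean of 6.24 CPM in the authors' deposited table. With Bax not called, 1 of the 3 pore former genes fell and 1 rose, where 26.5% of all genes fell and 25.2% rose. Bcl2l11, which encodes Bim, was at 0.12 (adjusted p = 0.0439) by the authors' deposited table and missed a threshold of 0.01. Bid, which links death receptors to mitochondria, at -0.05 (adjusted p = 0.377), and Bad, which is controlled by growth factor kinases, at -0.12 (adjusted p = 0.126) did not pass by the authors' deposited table. Of the 5 BH3-only genes of both groups, Pmaip1 fell, Bcl2l11 rose and 3 did not pass. Bak1, Bid and Bad share exonic bases with genes on the opposite strand, Ggnbp1, Bcl2l13 and Gpr137.

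Both caspases measured among the members rose, where 25.2% of all genes did. Casp2, an initiator caspase that acts in a complex with Pidd1, was at 0.36 in the authors' deposited table (adjusted p = 5.56e-13), or 128.5% of the heterozygous level. Casp9, the initiator caspase of the apoptosome, was at 0.22 in the authors' deposited table (adjusted p = 0.000922). Casp9 shares 94 exonic bases with genes on the opposite strand that are not in the table.

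Partners of Casp9 in the apoptosome went apart. Apaf1, the scaffold of the apoptosome, was at -0.22 in the authors' deposited table (adjusted p = 1.32e-06), and Cycs, which encodes cytochrome c, was at 0.19 (adjusted p = 9.53e-05). The annotation names 2 pseudogenes of Cycs, and reads may have been split among such copies. Xiap, an inhibitor that binds active caspases, had the lowest value of the group, -0.35 (adjusted p = 3.97e-19), and Diablo, which releases caspases from Xiap, was at -0.00 (adjusted p = 0.996) by the authors' deposited table. Diablo shares 1193 exonic bases with a gene model on the same strand, Gm49027. Apaf1 and Bid have been described as p53 targets elsewhere; with both counted as induced genes, 15 of 23 induced genes fell and 0 rose, and 2 of 11 other apoptosis genes fell and 5 rose.

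Further genes of the pathway were read from lists fixed by name, which were chosen with earlier results of these data known. Among all genes 26.5% fell and 25.2% rose. Of 40 further p53 targets 33 were in the table, and 16 fell and 5 rose, 48.5% and 15.2%. Their median log2 fold change was -0.10. By the authors' deposited table, those with the least p were the receptor kinase gene Epha2 at -0.50, Trp53i11 at -0.52, the Kit ligand gene Kitl at 0.99, the peptide transporter gene Tap1 at -0.94 and the transcription factor gene Foxo3 at -0.37. Kitl and Tap1 had means of 5.40 and 4.97 CPM, near the lower end of the authors' deposited table at 3.52 CPM. Of 31 regulators and relatives of p53 25 were in the table, and 6 fell and 11 rose, 24% and 44%, with a median of 0.06. The p53 deacetylase gene Sirt1 was at -0.34, the p53 kinase gene Hipk2 at 0.48, the damage response genes Trp53bp1 and Chek2 at 0.26 and 0.23, and Usp10, which removes ubiquitin from p53, at 0.19 in the authors' deposited table. Of the 11 rises only those of Hipk2, Trp53bp1 and Chek2 reached 0.2 on the log2 scale, and Sirt1 was among the falls that did. The other rises were of 0.10 to 0.19. At that size 12.0% of all genes were called higher and 17.2% lower.

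Further apoptosis genes were near the background. Of 50 listed 38 were in the table, and 12 fell and 8 rose, 31.6% and 21.1%, against 26.5% and 25.2% of all genes. Their median log2 fold change was 0.01. The mitophagy receptor gene Bnip3l was at -0.44, the nuclease gene Dffb, which cuts DNA in apoptosis, at -0.57, Bnip2 at -0.34 and Aifm2 at -0.46 in the authors' deposited table. Bnip3l lies on chromosome 14 among flanking genes with a median of -0.55.

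**Figure D5:**
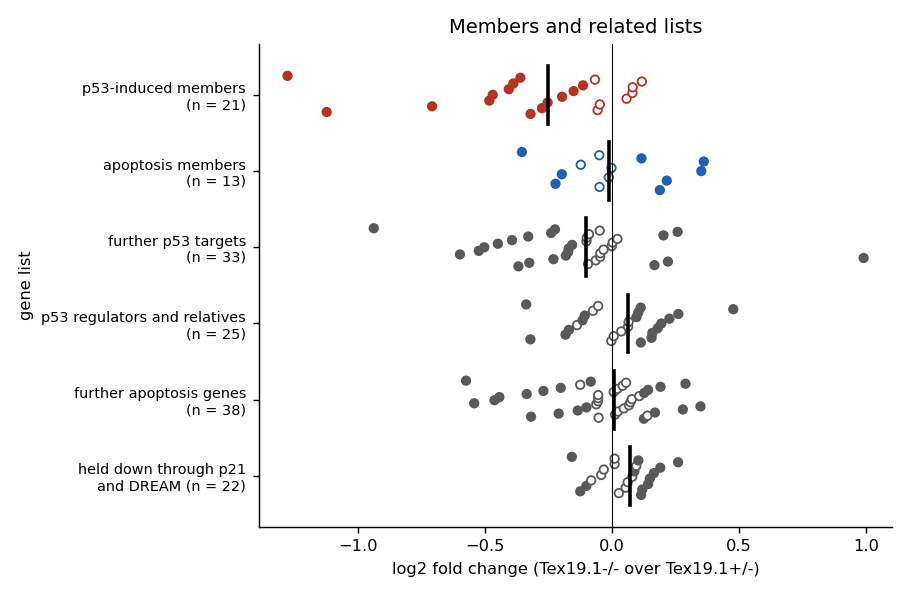
Log2 fold change (horizontal axis, Tex19.1-/- over Tex19.1+/-) of the genes of 6 lists, from the authors' deposited table, with 1 point per gene, filled where the adjusted p was under 0.05, and a black bar at each median. The medians of the induced members and of the further p53 targets, -0.25 and -0.10, are the lowest of the 6.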

How the data were processed

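Per the labels' protocols, RNA was taken up in TRIzol, made into stranded mRNA libraries and read from both ends on a HiSeq sequencer. Per the submitters' processing notes the tools were edgeR, HTSeq 0.11.2, TopHat2 2.1.0 and Trim Galore 0.4.1, and mm10 was the build. Not given in the sources used here are edgeR's version and test, the annotation, the strand setting and the rule that removed low genes. Per the file headers, the authors deposited 1 comparison with a log2 fold change, a mean log2 CPM, a p-value and an FDR (adjusted p-value) per gene. The lowest deposited mean was 1.82 on the log2 CPM scale. Benjamini-Hochberg adjustment of the deposited p-values gave the deposited FDR to within 6.7e-05.

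A count model had been planned for the case of counts per library; the authors' test stands in its place, with its adjustment over all genes. No test was run on lists. The members, their 2 groups and the related lists were chosen with earlier results of these data known, and the finer role groups after the values were seen. Every member, the markers and the 5 genes with the smallest p-value of each related list could be named; genes overlapping members were named besides, after their values were seen, and 1 gene that this rule names is not reported here. Percent of the heterozygous level is 2 raised to the log2 fold change. Positions and exon lengths come from GENCODE M21 (GRCm38, which mm10 names): 9573 symbols matched 1 gene and 555 were left without a position. Levels per kilobase divide the mean CPM by the merged exon length. A gene lies on a shifted stretch where the median of its 20 flanking genes is 0.2 or more away from the median over the table. Calculations used Python 3.11.15 and pandas 2.3.3, and were tested on simulated data. The alternatives comprised a threshold of 0.01, Bonferroni adjustment, a minimum of 16 CPM with p-values adjusted again, a log2 change of at least 0.2, leaving out shifted stretches, another grouping of Apaf1, Bid and Casp6, and fold changes minus the median of 301 genes of like expression.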

Additional observations from a re-analysis of the deposited data

How the results depend on the processing

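The induced group kept between 11 and 15 falls and 0 rises in every alternative run. The 15 was reached by counting Apaf1, which had fallen, with the group. Stricter thresholds and leaving out shifted stretches could not have added a rise, so the 0 is no check in those settings. For the other apoptosis genes Bonferroni adjustment left 4 calls in place of 8, with 1 rise in place of 5, and 2 rises among all members in place of 6. A minimum change of 0.2 on the log2 scale left 5 calls with 3 rises, and genes of at least 16 CPM left 3 rises; these alternatives are stricter or hold fewer genes by construction. The median log2 fold change of the induced genes was -0.266 with the median of genes of like expression subtracted, -0.224 without shifted stretches and -0.222 with Apaf1, Bid and Casp6 added. That of the other apoptosis genes was -0.0292 with genes of like expression subtracted, -0.0486 at 16 CPM or more and -0.0016 without Apaf1, Bid and Casp6. Of the 36 measured members 6 lost their call under Bonferroni adjustment (Ccng1, Ei24, Bcl2l11, Bok, Casp9 and Cycs), 1 under the threshold of 0.01 (Bcl2l11), and 0 called members changed direction with genes of like expression subtracted. The medians subtracted from members lay between -0.0673 and 0.0679, and the smallest called change was that of Ccng1, -0.11. No called member could therefore have changed direction in that setting. No paired analysis was possible because the table holds 1 comparison and no value per library. For the same reason leaving out each replicate in turn was not run, and whether 1 library carries a fall is unknown.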

Other observations

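Genes that p53 holds down through p21 and the DREAM complex, most of them genes of DNA replication and mitosis, were in the table in full. Of these 22 genes 3 fell and 9 rose in Tex19.1-/- cells, 13.6% and 40.9%, against 26.5% lower and 25.2% higher among all genes. Their median log2 fold change was 0.07, and the median of genes of like expression was not subtracted for this list. The median of their mean levels was 117.0 CPM, against 33.0 CPM for all genes. With called changes of at least 0.2 on the log2 scale counted alone, only Kif20a rose and no gene of the list fell. By that rule 12.0% of all genes rose and 17.2% fell, so the larger share of rises in the list did not hold. The other rises of the list were of 0.09 to 0.19. The mitotic kinesin gene Kif20a was at 0.26, the repair gene Brca1 at 0.19, the DREAM-linked transcription factor gene Mybl2 at 0.17 and the checkpoint kinase gene Bub1 at 0.15, while Kif23, another mitotic kinesin gene, was at -0.16 in the authors' deposited table. The list median lay above that of all genes, 0.00, where the medians of both lists of p53-induced genes, -0.25 and -0.10, lay below it. All of these lists were chosen with earlier results of these data known, and no difference between them was tested.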
